A study of Mus musculus with 40 samples.

Results

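The miR-129 family comprised 3 mature miRNAs of the 1978 measured, mmu-miR-129-5p, mmu-miR-129-1-3p and mmu-miR-129-2-3p, which were chosen by name as the products of both arms of the Mir129-1 and Mir129-2 hairpins. Small RNA was sequenced from the CA1 region of the hippocampus of 40 mice, with 1 library per mouse. The groups were 5 wild-type control (WT) mice and 9 CamKIIδC transgenic (TG) mice at 3 months of age, and 15 WT and 11 TG mice at 6 months of age. TG mice carry a CaMKIIδC transgene that produces heart failure, and controls were WT littermates on the same C57Bl/6J background. The transgene is a model of a primary heart disease, so the hippocampus was studied as a remote organ. The title and the genotype field disagreed for 3-month-old WT mice 1 and 2, and the title was used.

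A miRNA hairpin is cut by Dicer into a short duplex, and one or the other strand of it is loaded into an Argonaute protein, so that each hairpin can yield a 5p and a 3p miRNA. The loaded strand finds its target mRNAs mainly through the seed, bases 2 to 8. miR-129-5p is enriched in the brain and in neurons. It is known to repress the potassium channel Kv1.1 (Kcna1) in hippocampal neurons and to take part in the homeostatic downscaling of synapses after prolonged activity.

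Both hairpins carry the same miR-129-5p, and their 3p arms are close to identical. The sequences are given to show what separates the family members, with the seed of each mature miRNA in capitals and, in the hairpins, the whole of miR-129-5p in capitals (RefSeq, GRCm38.p6).
mmu-miR-129-5p: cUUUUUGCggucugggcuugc
mmu-miR-129-2-3p: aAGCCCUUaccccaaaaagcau
Mir129-1 hairpin: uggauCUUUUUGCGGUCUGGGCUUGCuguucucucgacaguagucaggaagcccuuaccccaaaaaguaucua
Mir129-2 hairpin: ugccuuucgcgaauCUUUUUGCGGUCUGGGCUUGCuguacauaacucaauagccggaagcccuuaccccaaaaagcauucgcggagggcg
miR-129-5p has 21 bases and matches both hairpins with 0 mismatches. miR-129-2-3p has 22 bases and matches the Mir129-1 hairpin with 1 mismatch, C20U, counted from 1 at its 5′ end. Reads of the 3p arms can therefore be told apart at this base alone, and how reads that end before it were assigned is not given in the sources used here. The seeds of the arms differ, UUUUUGC in miR-129-5p and AGCCCUU in miR-129-2-3p, and 0 of the other mature miRNAs among the 1679 in the sequence table carries either of them. The single mismatch lies outside the seed, so the 3p arm of the Mir129-1 hairpin also holds AGCCCUU. Of the 3 members, 2 were matched to a mature sequence, and mmu-miR-129-1-3p is named only.

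Mir129-1 lies at chr6:29022619-29022691 on the plus strand of GRCm38, within an exon of the long noncoding RNA Gm3294. The nearest protein-coding genes are Lep, which encodes the hormone leptin, at 37529 bp, and Snd1, at 87457 bp. Mir129-2 lies at chr2:94241364-94241453 on the minus strand, within an intron of the long noncoding RNA Mir670hg. The annotated Mir129b overlaps it on the opposite strand at chr2:94241378-94241442. Its products were almost absent, with 10 reads of miR-129b-5p and 23 reads of miR-129b-3p over all 40 libraries.

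The library totals ranged from 2656368 to 36547011 counts, with a median of 29499287 in 3-month-old TG mice and 22455957 in 3-month-old WT mice against 13894826 and 14908612 in 6-month-old TG and WT mice. Age and depth were thus partly confounded. The labels give no batch. Libraries differed within groups in a way that many miRNAs shared. This was examined over the 358 other miRNAs whose mean level reached 10 CPM (counts scaled to a library of 1000000). Their first principal component held 70.1% of the variance left after the group means were removed. All 10 neuron-enriched miRNAs of the marker list, among them miR-124-3p and miR-9-5p, were present in every group, and their summed level ranged from 189083 to 389635 CPM.

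miR-129-5p was by far the most abundant member. Its count ranged from 43044 to 210760 per library, and it ranked between 8th and 39th of 699 miRNAs. Levels below are CPM of mature miRNA counts scaled with TMM, a method that corrects for differences in library composition. In 3-month-old WT mice 1 to 5, miR-129-5p was at 11183, 3179, 7688, 4587 and 7608 CPM. In 3-month-old TG mice it ranged from 2932 to 21239 CPM with a median of 5030. In 6-month-old WT mice it ranged from 5025 to 35439 with a median of 9251, and in 6-month-old TG mice from 5612 to 32841 with a median of 12785. The 4 groups overlapped, and the spread within each was wide, with a coefficient of variation between 45.4% in 3-month-old WT and 75.6% in 6-month-old WT mice.

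The 9 3-month-old TG libraries did not form a continuous range. Mice 4, 5, 6, 7 and 9 were at 2932 to 5030 CPM of miR-129-5p, mice 1, 2, 3 and 8 were at 14398 to 21239, and no library lay between. In the deposited RPM, which are scaled to 1000000 reads of any entry and carry no TMM factor, the fold between the highest and lowest library of this group was 3.59 in place of 7.24. In 6-month-old WT mice, mice 4 and 5 were highest, at 35439 and 33342 CPM, and both belonged to the 3 libraries with fewer than 5000000 counts.

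The 3p arms were far less abundant. mmu-miR-129-2-3p was counted 116 to 10581 times per library and ranked between 119th and 184th. It was at 174, 294, 209, 182 and 218 CPM in 3-month-old WT mice 1 to 5. Its range was 130 to 344 CPM (median 246) in 3-month-old TG mice, 89.9 to 285 (median 188) in 6-month-old WT mice and 136 to 250 (median 188) in 6-month-old TG mice. mmu-miR-129-1-3p was counted 70 to 3004 times and ranked between 174th and 238th. It was at 79.6, 86.6, 69.0, 50.4 and 78.2 CPM in 3-month-old WT mice 1 to 5. Its range was 48.9 to 107 CPM (median 78.9) in 3-month-old TG mice, 54.2 to 124 (median 89.9) in 6-month-old WT mice and 67.2 to 105 (median 85.5) in 6-month-old TG mice. Within each of the 40 libraries the order was miR-129-5p, miR-129-2-3p, miR-129-1-3p, although the ranges of the 3p arms overlapped between libraries. The groups overlapped for both 3p arms, whose coefficients of variation lay between 15.8% and 36.7%.

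**Figure D1:**
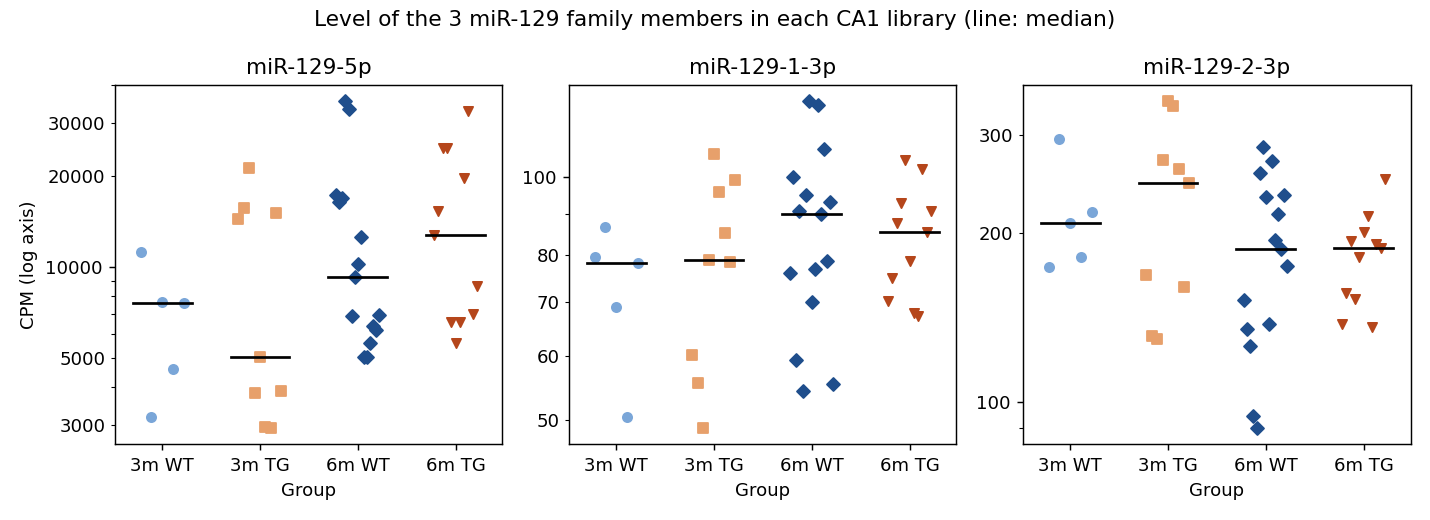
Level of each member in CPM (log axis, scaled separately per panel) in the 40 libraries by group, with a line at the group median. The 3-month-old TG libraries fall into a low range of 2932 to 5030 CPM and a high range of 14398 to 21239 CPM of miR-129-5p, and all groups overlap for every member.

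Between 3 and 6 months, miR-129-5p had the highest fold change of the family in both genotypes, and neither passed the test. In TG mice its log2FC was 0.69 (SE 0.43, adjusted p = 0.255, edgeR), with 3 of 11 6-month-old mice above all 3-month-old mice. In WT mice it was 0.90 (SE 0.45, adjusted p = 0.340, edgeR), with 6 of 15 6-month-old mice above all 3-month-old mice. Permutation of the mean log2 CPM gave differences of 0.81 in TG (exact p = 0.101, adjusted p = 0.697 over 12 tests) and 0.73 in WT mice (exact p = 0.116, adjusted p = 0.697). Without the 3 libraries under 5000000 counts, an analysis added after the data had been seen, the log2FC was 0.50 in TG and 0.51 in WT mice. The age comparisons use different mice throughout, so they are separate measurements of the same miRNA. They are not separate with respect to depth, since in both genotypes the median library total was higher at 3 months.

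The 3p arms had smaller fold changes, and that of miR-129-2-3p had the opposite sign. Its log2FC with age was −0.31 in TG (SE 0.19, adjusted p = 0.252) and −0.22 in WT mice (SE 0.24, adjusted p = 0.686) by edgeR, and −0.076 in WT mice without 3-month-old WT mouse 2. miR-129-1-3p gave 0.10 in TG (SE 0.16, adjusted p = 0.662) and 0.24 in WT mice (SE 0.20, adjusted p = 0.573) by edgeR, with 0.037 to 0.17 and 0.13 to 0.32 leaving out 1 3-month-old mouse. Of the family, 0 of 3 members were called altered (adjusted p under 0.05 and absolute log2FC above 0.26) with age in TG mice, where 15.7% of 629 tested miRNAs were called. In WT mice 0 of 3 were called, where 0.152% of 660 were. Over all tested miRNAs the median log2FC was −0.09 in TG and −0.02 in WT mice.

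The call of miR-129-5p with age depended on how unwanted variation was handled. Of the fits run here, DESeq2 with 1 or 2 RUVr factors is closest in type to the model of the study. The study names DESeq2 with RUVSeq but neither the kind nor the number of factors. These DESeq2 fits gave similar log2FC but called miR-129-5p altered. The values were 0.74 and 0.75 in TG (adjusted p = 1.87e-09 and 7.54e-14) and 0.71 and 0.72 in WT mice (adjusted p = 3.21e-07 and 2.17e-08). Calls were common in these fits, with 302 and 312 of 629 miRNAs in TG and 205 and 219 of 660 in WT mice. The same fits called miR-129-2-3p lower in TG mice, with a log2FC of −0.27 (adjusted p = 0.0473 and 0.0423). RUVr factors are made from residuals after the group means are taken out, so by construction they remove spread within groups and leave a difference between groups in place. A factor taken from the spike-in oligos is not bound in this way. With it the log2FC of miR-129-5p by edgeR was 0.22 in TG mice (SE 0.10, adjusted p = 0.0969). In WT mice it was 0.14 (SE 0.13, adjusted p = 0.640). The SE was thus smaller as well, and neither value was called. Over all miRNAs the fit with the spike-in factor called 231 of 629 in TG and 9 of 660 in WT mice. With log2 library total as a covariate the log2FC of miR-129-5p was 0.03 in TG and 0.27 in WT mice, in an analysis added after the data had been seen.

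Between genotypes no member passed the test at either age. At 3 months, TG against WT gave log2FC of 0.37 (SE 0.47) for miR-129-5p, 0.09 (SE 0.25) for miR-129-1-3p and 0.06 (SE 0.29) for miR-129-2-3p, each with an adjusted p of 0.998 by edgeR. At 6 months the values were 0.19 (SE 0.36), −0.06 (SE 0.13) and −0.04 (SE 0.16), each with an adjusted p of 0.992 by edgeR. Leaving out 1 mouse moved the value of miR-129-5p at 3 months between 0.21 (without TG mouse 3) and 0.63 (without WT mouse 1) and that of miR-129-1-3p between 0.0014 and 0.19, and RUVr factors gave 0.20 and 0.22 for miR-129-5p. Over all miRNAs, 0% of 695 were called at 3 months and 0% of 612 at 6 months, with 7 and 3 at an unadjusted p under 0.05. DESeq2 with 1 and 2 RUVr factors called 7 and 77 miRNAs at 3 months and 3 and 4 at 6 months, and every other fit called 0. The SE of miR-129-5p at 3 months, with 5 WT mice, exceeded its log2FC, so a difference of this size was not detectable. Without the 3 libraries under 5000000 counts the log2FC of miR-129-5p at 6 months was 0.42, and it was not called.

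The change with age did not differ detectably between the genotypes. The interaction of age and genotype was −0.25 (SE 0.63) for miR-129-5p, −0.16 (SE 0.24) for miR-129-1-3p and −0.11 (SE 0.30) for miR-129-2-3p, each with an adjusted p of 0.986 by edgeR. Leaving out 1 3-month-old mouse moved the interaction of miR-129-5p between −0.47 (without WT mouse 1) and −0.0080 (without TG mouse 3), that of miR-129-1-3p between −0.23 and −0.052 and that of miR-129-2-3p between −0.25 and −0.016. Over all miRNAs 0% of 699 were called, with 14 at an unadjusted p under 0.05. DESeq2 with 2 RUVr factors called 5, and every other fit 0.

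**Figure D2:**
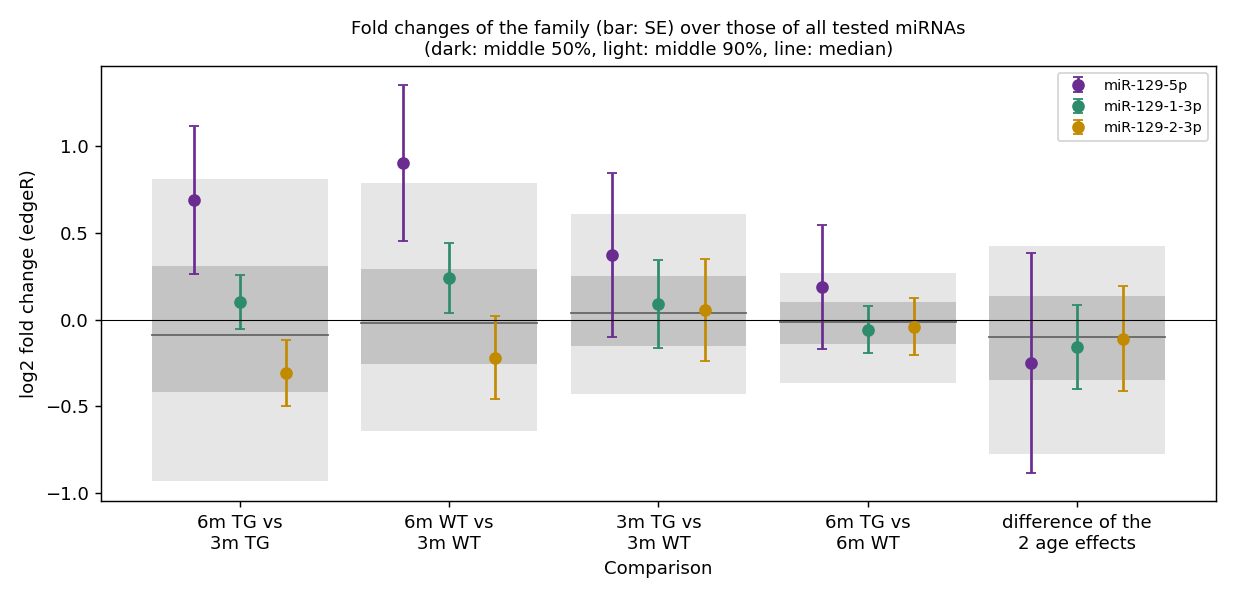
Log2 fold change of each member with its SE in the 5 edgeR comparisons, over the middle 50% (dark) and 90% (light) of all tested miRNAs and their median (line). miR-129-5p is at 0.69 and 0.90 with age and miR-129-2-3p at −0.31 and −0.22, and no member was called.

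The ratio of the 5p to the 3p reads needs no scaling between libraries, since both counts come from the same library. It is a ratio of reads, and whether the library kit captures both arms equally was not tested. The ratio of miR-129-5p to miR-129-2-3p ranged from 8.78 to 375 across the 40 libraries, which is 3.13 to 8.55 on the log2 scale. On that scale it was 6.00, 3.43, 5.20, 4.66 and 5.12 in 3-month-old WT mice 1 to 5. It was 3.13 to 7.35 in 3-month-old TG (median 3.98), 4.23 to 8.55 in 6-month-old WT (median 5.31) and 4.80 to 7.42 in 6-month-old TG mice (median 6.54). miR-129-5p thus exceeded miR-129-2-3p in every library, by factors that differed widely within each group.

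The 3-month-old TG mice again split without intermediates, with log2 ratios of 3.13, 3.49, 3.82, 3.87 and 3.98 in mice 6, 7, 4, 5 and 9, and of 6.42, 6.56, 6.90 and 7.35 in mice 1, 8, 2 and 3. In the same order of mice, the library totals were 36547011, 29499287, 29703001, 31186026 and 33006726 counts, then 25145705, 13200774, 17146603 and 13377760. Every library of the low range was thus deeper than every library of the high range. In 6-month-old TG mice the ratio also had a gap, from 5.22 to 6.54, with 5 libraries below and 6 above it. In 6-month-old WT mice the highest ratios, 8.55 and 8.53, were those of mice 4 and 5, the shallowest of that group.

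The mean log2 ratio of miR-129-5p to miR-129-2-3p was higher at 6 than at 3 months in both genotypes, within the spread of the libraries. The difference was 1.06 in TG mice (6.12 ± 1.07, SD, n = 11, against 5.06 ± 1.70, n = 9, exact permutation p = 0.105, adjusted p = 0.420 over 12 tests). In WT mice it was 1.01 (5.89 ± 1.41, n = 15, against 4.88 ± 0.94, n = 5, exact permutation p = 0.144, adjusted p = 0.432). Without the 3 libraries under 5000000 counts, the differences with age were 0.93 in TG and 0.60 in WT mice. Without 3-month-old WT mouse 2 the difference in WT mice was 0.64. Between genotypes the differences were 0.18 at 3 months (exact permutation p = 0.833) and 0.23 at 6 months (permutation p = 0.652). The ratio of miR-129-5p to miR-129-1-3p behaved alike, with a range of 4.95 to 9.25 on the log2 scale and differences of 0.69 with age in TG (exact permutation p = 0.222) and 0.51 in WT mice (exact permutation p = 0.373), the latter 0.20 without 3-month-old WT mouse 2. Between genotypes it differed by 0.10 at 3 months and 0.28 at 6 months (exact permutation p = 0.901 and permutation p = 0.514).

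The ratio of the 3p arms was the steadiest of the family and had the lowest p-values with age. On the log2 scale, miR-129-2-3p over miR-129-1-3p was 1.13, 1.77, 1.60, 1.85 and 1.48 in 3-month-old WT mice 1 to 5. It was 1.03 to 1.82 (median 1.48) in 3-month-old TG, 0.06 to 1.73 (median 1.11) in 6-month-old WT and 0.72 to 1.67 (median 1.06) in 6-month-old TG mice. The mean was lower at 6 months by −0.37 in TG (1.11 ± 0.29, n = 11, against 1.49 ± 0.26, n = 9, exact permutation p = 0.00911) and by −0.50 in WT mice (1.07 ± 0.44, n = 15, against 1.56 ± 0.28, n = 5, exact permutation p = 0.0172). Both had an adjusted p of 0.103 over the 12 ratio tests and so missed the threshold. In TG mice 5 of 11 6-month-old libraries lay below all 3-month-old libraries, and in WT mice 8 of 15 did. Leaving out 1 3-month-old mouse gave an adjusted p of 0.0397 to 0.116 in TG and 0.0547 to 0.344 in WT mice (exact permutation test). The lowest of these came without 3-month-old TG mouse 8, where the TG difference was −0.43. That mouse had the lowest ratio of its group, 1.03. Between genotypes the differences were −0.08 at 3 months (exact permutation p = 0.607) and 0.05 at 6 months (permutation p = 0.773). In 3-month-old TG mice the ratio of the 3p arms was 1.31 to 1.82 in the 5 deeper libraries, those with low miR-129-5p. In the 4 shallower libraries it was 1.03 to 1.48, so the ranges overlapped. Age and depth were partly confounded, and the relation of this ratio to depth was not tested. The part of depth in its difference with age is therefore not known.

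**Figure D3:**
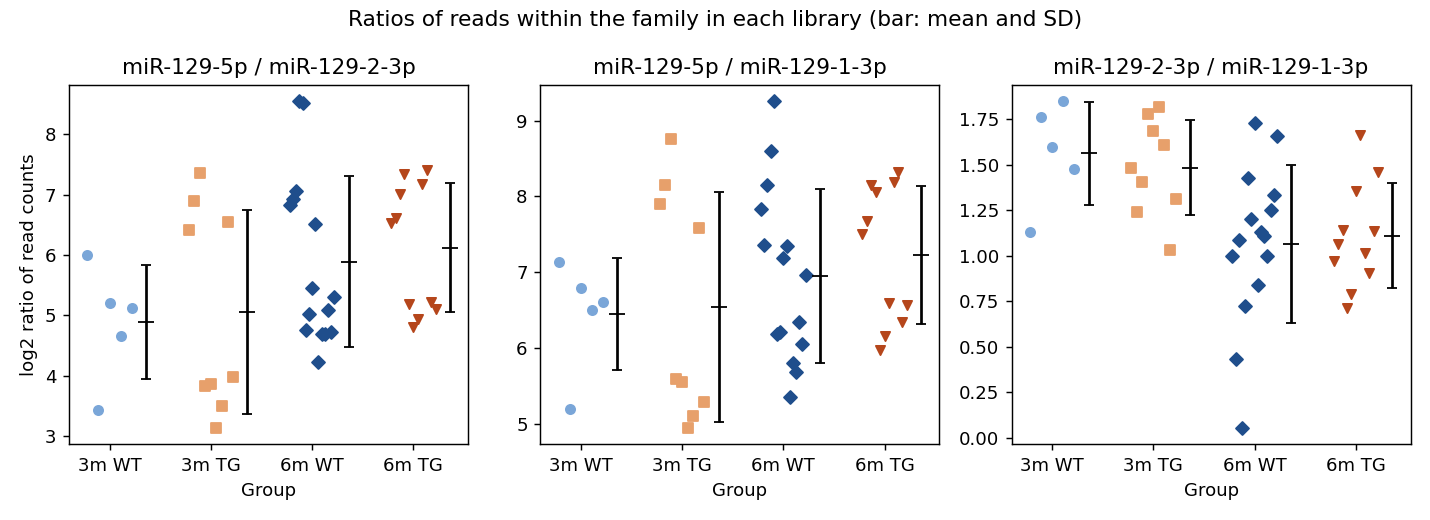
Log2 ratio of read counts for each pair of members in the 40 libraries by group (points), with the mean and SD of the group (bar). The ratio of miR-129-5p to miR-129-2-3p spans 3.13 to 8.55 and splits the 3-month-old TG libraries, whereas miR-129-2-3p over miR-129-1-3p spans 0.06 to 1.85 and is lower on average at 6 months.

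miR-129-2-3p was lower where miR-129-5p was higher in 6-month-old WT mice, the one relation between a 5p and a 3p arm that passed the test among 6-month-old mice. In 6-month-old WT mice, log2 CPM of miR-129-5p and miR-129-2-3p had Pearson's r of −0.86 (permutation p = 0.0001, adjusted p = 0.0009 over 9 relations, n = 15) and Spearman's rho of −0.74 (permutation p = 0.00217, adjusted p = 0.0195). Without the 2 mice farthest from the median of miR-129-5p, r was −0.70. In 6-month-old TG mice r was −0.43 (permutation p = 0.189, adjusted p = 0.243, n = 11) and rho −0.37 (permutation p = 0.263), and without the 2 farthest mice r was −0.54. The 3-month-old TG libraries form separate ranges of 5 and 4, and no r is given for them. Relations in that group were computed and count among the 9.

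The 3p arms rose and fell together in 6-month-old WT mice, where their r was 0.58 (permutation p = 0.0229, adjusted p = 0.0413, n = 15), rho was 0.63 (permutation p = 0.0138, adjusted p = 0.0388), and r without the 2 farthest mice was 0.61. In 6-month-old TG mice r was 0.36 (permutation p = 0.276, adjusted p = 0.310, n = 11) and rho 0.22 (permutation p = 0.519), and without the 2 farthest mice r was −0.10, so no relation was detectable there. Between miR-129-5p and miR-129-1-3p, r was −0.42 in 6-month-old WT (rho −0.47, permutation p = 0.120 and 0.0785, n = 15) and 0.17 in 6-month-old TG mice (rho 0.23, permutation p = 0.617 and 0.505, n = 11).

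**Figure D4:**
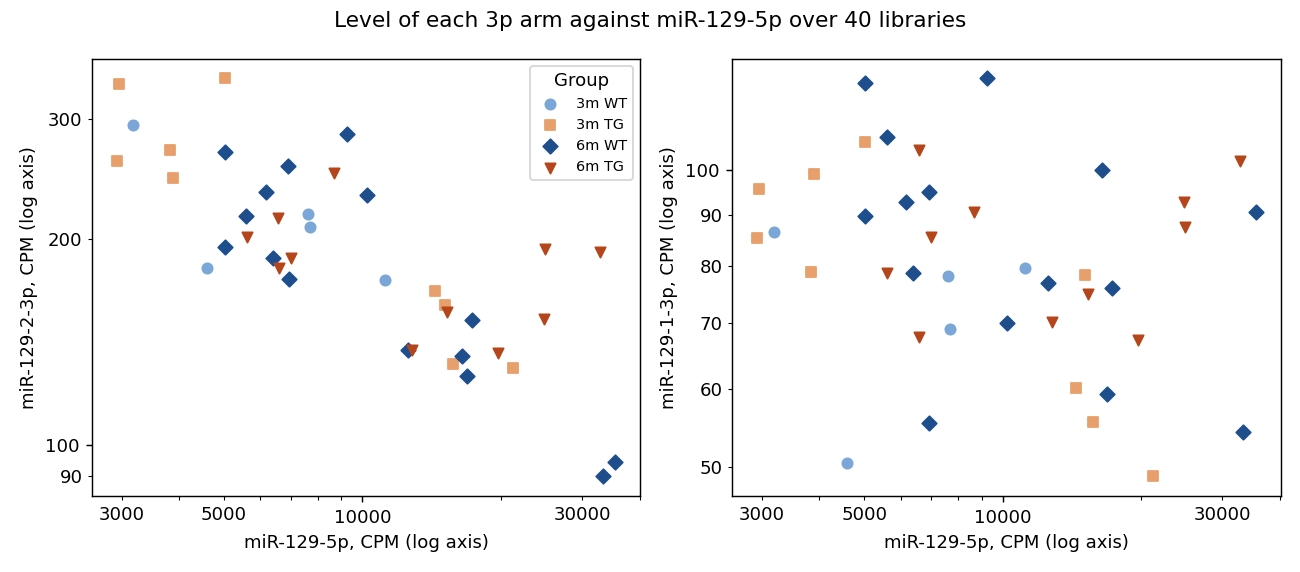
Level of miR-129-2-3p (left) and miR-129-1-3p (right) against miR-129-5p in CPM (log axes) over 40 libraries, 1 point per mouse. In 6-month-old WT mice miR-129-2-3p is lower where miR-129-5p is higher (r −0.86), down to 89.9 and 94.3 CPM in mice 5 and 4, and miR-129-1-3p has an r of −0.42 with miR-129-5p there.

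Among 112 hairpins with both arms at a mean of at least 10 CPM (here without TMM), the arms of most rose and fell together within groups. Their median r after removal of the group means was 0.52, and 38 (33.9%) had an r under 0. mir-129-2 had an r of −0.82, the 8th lowest, and mir-129-1 an r of −0.70, the 10th lowest. These values carry no TMM factor and include the 3-month-old TG libraries, which form separate ranges. In log2 CPM with TMM, r of the mir-129-1 arms was −0.42 in 6-month-old WT and 0.17 in 6-month-old TG mice. That of the mir-129-2 arms was −0.86 and −0.43. The SD of the log2 ratio of the arms within groups was 1.35 for mir-129-2, the 9th highest, and 1.15 for mir-129-1, the 19th highest, against a median of 0.58. The hairpins share miR-129-5p, so these are not independent values. Other hairpins spread as widely, among them mir-708 (SD 1.85, r −0.95), mir-106b (SD 1.64, r −0.91) and mir-151 (SD 1.56, r −0.63).

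**Figure D5:**
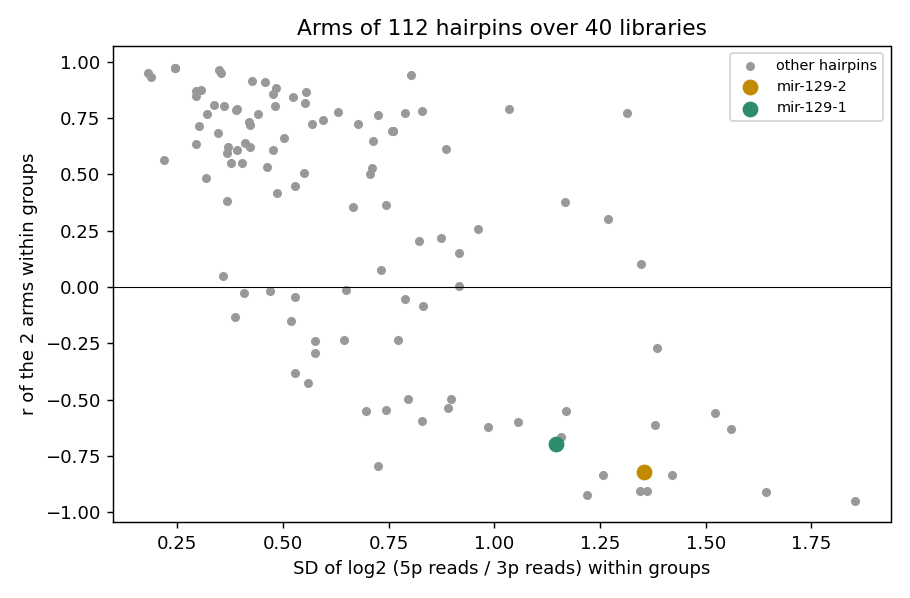
Correlation of the arms against the SD of their log2 ratio within groups (group means removed, 40 libraries), 1 point per hairpin for 112 hairpins. mir-129-2 (SD 1.35, r −0.82) and mir-129-1 (SD 1.15, r −0.70) lie among the hairpins with a wide ratio and opposed arms, where other hairpins also lie.

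The miRNAs most like each member were found by Pearson's r of log2 CPM over the 40 libraries after the group means were removed, as a description, since all miRNAs share these libraries and their depth. miR-129-5p was most like miR-151-3p (r = 0.99), miR-1964-3p (0.98), miR-674-3p (0.98), miR-378a-3p (0.98) and miR-378c (0.98). miR-129-2-3p was most like miR-342-3p (0.91), miR-133a-3p (0.89), miR-16-5p (0.86), miR-376c-3p (0.85) and miR-23a-3p (0.85). miR-129-1-3p was most like miR-34a-5p (0.77), miR-181a-1-3p (0.71), miR-210-3p (0.69), miR-129-2-3p (0.65) and miR-7a-1-3p (0.63). A likeness of this height was common for miR-129-5p: 80 of the 358 other miRNAs had r above 0.8 with it, and 77 had r below −0.8. Its r with the first principal component of these other miRNAs was 0.98, against −0.84 for miR-129-2-3p and −0.51 for miR-129-1-3p.

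Sequences of some of the miRNAs most like and most opposite to miR-129-5p are shown because none shares its seed (capitals, bases 2 to 8, RefSeq). miR-151-3p, the most like, was not matched to a sequence and is not shown.
mmu-miR-1964-3p: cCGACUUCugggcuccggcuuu
mmu-miR-674-3p: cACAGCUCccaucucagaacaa
mmu-miR-369-3p: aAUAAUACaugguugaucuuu
mmu-miR-20a-5p: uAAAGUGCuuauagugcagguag
miR-1964-3p and miR-674-3p had r of 0.98 with miR-129-5p, and miR-369-3p and miR-20a-5p had r of −0.98 and −0.97. The GC content was 63.6% in miR-1964-3p, 50% in miR-674-3p, 23.8% in miR-369-3p and 39.1% in miR-20a-5p, against 57.1% in miR-129-5p and 45.5% in miR-129-2-3p. Among miRNAs with a sequence, the median GC content was 52.4% in the 71 with r above 0.8 and 45.5% in the 64 with r below −0.8, and Spearman's rho of GC content with r was 0.30 across 310 miRNAs, which are not independent replicates.

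The same ordering of libraries was present in part of the synthetic RNA. The UniSp spike-in oligos are added during preparation and are not made by the mouse, and they took 0.0851% to 0.252% of the counts. Of 43 oligos with a mean of at least 10 counts, 25 had an r below −0.8 and 2 an r above 0.8 between their share of all spike-in counts and the log2 ratio of miR-129-5p to miR-129-2-3p, with group means removed. The extremes were −0.97 and 0.94. Some abundant oligos did not follow the ordering, among them UniSp132 (r 0.008) and UniSp144 (r −0.05). The shares sum to a constant within a library, so the r values of the oligos are not independent. The ratio was also related to depth: in 6-month-old WT mice its r with log2 library total was −0.79 (permutation p = 0.00119, adjusted p = 0.00238 over 6 relations, n = 15) and rho −0.58 (permutation p = 0.0286, adjusted p = 0.0344). Without the 2 mice farthest from the median depth r was −0.38, so in this group the relation rested largely on those libraries. In 6-month-old TG mice r was −0.61 (permutation p = 0.0305, adjusted p = 0.0367, n = 11) and rho −0.74 (permutation p = 0.0127, adjusted p = 0.0324), with r of −0.37 without the 2 farthest mice. For the 3-month-old TG mice, in 2 separate ranges, no r is given, and their depths are listed beside the ratios. What sets the common ordering of the libraries was not tested.

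Other miRNAs of homeostatic synaptic plasticity and markers of other cells were examined beside the family. Of 9 plasticity miRNAs (miR-92a-3p, miR-124-3p, miR-186-5p, miR-134-5p, miR-485-5p, miR-218-5p, miR-132-3p, miR-138-5p and miR-181a-5p), 1 rose with age in TG mice and 0 fell, with a median log2FC of 0.12 against −0.09 for all miRNAs. This count is near the share of all miRNAs called in that comparison, 15.7%. The one that rose was miR-218-5p (log2FC 0.55, SE 0.16, adjusted p = 0.0210, edgeR). miR-124-3p, an abundant neuronal miRNA, had a log2FC of −0.66 (SE 0.28, adjusted p = 0.102), and miR-132-3p, which follows neuronal activity through CREB, 0.32 (SE 0.15, adjusted p = 0.140) by edgeR. In WT mice 0 of the 9 were called with age, with a median of 0.05 against −0.02 for all miRNAs.

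With age in TG mice, 2 of 10 neuron-enriched miRNAs rose (miR-128-3p and miR-218-5p, log2FC 0.73 and 0.55) and 0 fell, 2 of 3 oligodendrocyte miRNAs fell (miR-219a-2-3p and miR-338-3p, log2FC −0.57 and −1.02), 0 of 4 microglial and blood immune miRNAs were called, 1 of 4 vessel miRNAs rose (miR-126a-3p, 0.73), and of 3 red blood cell miRNAs 1 rose (miR-451a, 0.68) and 1 fell (miR-144-3p, −0.98). The median log2FC of the neuron-enriched list was −0.17, against −0.09 for all miRNAs, so the risers do not stand for the list. Over all tested miRNAs 15.7% were called in this comparison, and no list was tested against that share. Both choroid plexus miRNAs, miR-204-5p and miR-211-5p, rose (0.89 and 1.07). Their summed level was 290 to 749 CPM in 3-month-old and 638 to 1023 CPM in 6-month-old TG mice. In WT mice 0 miRNAs of these lists were called with age. In bulk tissue a change in the share of a cell type and a change in RNA per cell cannot be told apart, and the part of these markers in the values of the family was not tested. By genotype and in the interaction, 0 miRNAs of any list were called.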

How the data were processed

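Small RNA libraries (NEBNext kit) were trimmed, mapped to mm10 with the mirdeep2 mapper and bowtie and quantified against miRBase by the authors. The authors deposited counts with 1 entry per mature miRNA and hairpin, and RPM values, which scale each count by the total of all entries. miR-129-5p has 2 entries that differed by at most 0.0748% in any library, and the higher one was used. Members and lists were chosen with earlier results of these data known.

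Counts of 1978 mature miRNAs, without 52 spike-in entries, were fitted with edgeR 4.0.16 (R 4.3.3; filterByExpr, TMM, robust quasi-likelihood F test, Benjamini-Hochberg adjustment over all tested miRNAs). The thresholds were those of the study, adjusted p under 0.05 and absolute log2FC above 0.26. CPM were computed from each mature miRNA once, so they exceed RPM. Permutation tests (scipy 1.17.1) were two-sided, on log2 CPM with a prior count of 2 or on log2 ratios with 0.5 added to each count, and exact where a group had under 10 mice, otherwise with 100000 resamples. Each family was adjusted over 12 tests. Named miRNAs were the members, the 5 most like each with a mean of at least 10 CPM, miRNAs sharing a seed, and the lists. The sequences of opposite miRNAs, and the other hairpins named, were chosen after their values were seen. Alternatives used other normalizations, filters and covariates, DESeq2 1.42.0 and limma 3.58.1. Each group member is a separate mouse. A count of 0 allows up to 3 counts, or 0.0821 to 1.13 RPM, and counting error alone is covered by this floor. Fits were tested on simulated data.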

Additional observations from a re-analysis of the deposited data

How the results depend on the processing

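No member was called in any comparison by the reported fits, and none was called in the leave-one-out fits, which were run for each 3-month-old mouse and not for 6-month-old mice. The fits with RUVr factors did so for age: 0.74 and 0.75 in TG and 0.71 and 0.72 in WT mice for miR-129-5p, and −0.27 and −0.27 in TG mice for miR-129-2-3p. Replicate numbers are shared between groups but did not pair the mice by the rule that every pair exceeds r = 0.1. For age, 7 of 9 pairs did so in TG and 2 of 5 in WT mice. For genotype, 2 of 5 did so at 3 months and 9 of 11 at 6 months. With the replicate block, the age effect in WT mice was 1.83 for miR-129-5p and −0.87 for miR-129-2-3p, both called. That fit called 250 of 660 miRNAs. Called miRNAs with age in TG mice were 302, 312 and 231 with 1 and 2 RUVr factors and the spike-in factor, against 99. In WT mice they were 2 without TMM, 13 with DESeq2, 205 and 219 with RUVr factors, 9 with the spike-in factor, 0 with limma at either pseudocount, 0 with the depth covariate and 0 to 4 leaving out 1 mouse (0 without 3-month-old WT mouse 2, 3 or 4, and 4 without mouse 1 or 5), against 1. By genotype RUVr factors gave 7 and 77 at 3 months and 3 and 4 at 6 months, and 5 in the interaction, against 0.

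Signs turned as follows, with no value past the threshold. Age: miR-129-1-3p in TG −0.21 without TMM, and miR-129-2-3p in WT 0.039 with the spike-in factor and 0.048 with the depth covariate. Genotype at 3 months: miR-129-5p −0.11 with the spike-in factor, miR-129-1-3p −0.049 and −0.053 with limma, −0.17 with the replicate block and −0.056 with the depth covariate, and miR-129-2-3p −0.13, −0.13, −0.21 and −0.24 in these fits and −0.040 to 0.23 leaving out 1 mouse. Genotype at 6 months: miR-129-2-3p 0.092 with the spike-in factor and 0.079 with the replicate block. Interaction: miR-129-5p 0.022 without TMM, 0.10 with the spike-in factor, 0.11 and 0.11 with limma and 0.0083 without libraries under 5000000 counts, and miR-129-2-3p 0.0047 and 0.0057 with RUVr factors, 0.013 with the spike-in factor, 0.051 and 0.054 with limma, 0.22 with the replicate block and 0.049 with the depth covariate. Ratios by genotype at 3 months: miR-129-5p to miR-129-1-3p −0.092 without and −0.16 with 3-month-old WT mice 1 and 2 counted as TG, and −0.22 to 0.30 leaving out 1 mouse, and miR-129-5p to miR-129-2-3p −0.19 to 0.45. At 6 months miR-129-2-3p to miR-129-1-3p was −0.038 without libraries under 5000000 counts. With age in TG mice this ratio was −0.43 to −0.33 leaving out 1 mouse. Causes were not tested. Depth limits the 3p arms most, with 70 counts of miR-129-1-3p in the lowest library.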

Other observations

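Of 12 sets of values tested for a library that stands apart (3 levels and 3 ratios in each 3-month-old group), 0 held one. After removal of the 3 libraries with fewer than 5000000 counts, a step added after the depths were seen, the difference of the log2 ratio of miR-129-2-3p to miR-129-1-3p with age was −0.35 in TG and −0.39 in WT mice.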
